A study of Mus musculus with 8 samples.

Results

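Chemokines and chemokine receptors were examined in gastrocnemius, a calf muscle of mainly fast fibres, from mice lacking histone deacetylase 5 (Hdac5) and from wild type littermates. The family was defined by gene name: every gene with a probe set of its own whose symbol begins with Ccl, Cxcl, Ccr or Cxcr and a digit, and Cx3cl1. This gave 49 of the 19938 genes tested, 33 ligands and 16 receptors. The 8 samples were 4 labelled HADAC5 KO (knockout) and 4 labelled HDAC5 WT (wild type), all from mice 30 weeks old on low-fat chow with no further treatment. The study's question concerned HDAC5 and the transcription of interleukin 6 in muscle. The labels give neither the strain, the sex nor the deleted part of the gene, and they number the samples without saying that each came from its own animal, so the spread behind each p-value may be technical.

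Chemokines are small secreted proteins that form gradients along which leukocytes migrate, and they act through G protein-coupled receptors. They are named after the spacing of their first cysteines (CC, CXC and CX3C). Some are made steadily by stromal cells and position resident cells, whereas others are induced by cytokines and recruit monocytes, neutrophils or lymphocytes. In resting muscle most fibres make little of them, and macrophages, fibroblasts and vessel cells are the usual sources.

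Values are log2 signals on Affymetrix gene arrays, with 1 value per probe set and sample, and differences are knockout minus wild type. The signal percentile of a gene is the rank of its mean among the 19938 genes, and it is given only to show which genes were dim, since dim signals understate a change. Of the 49 members 39 lay below the 50th percentile and 17 below the 25th. Hdac5 itself was between 8.31 and 8.39 in the knockout and between 9.76 and 9.94 in the wild type samples, and the muscle genes Ckm and Acta1 were above 14.4 in all 8 samples. The arrays differed at their dim end: the lower quartile was 6.45 in knockout sample 1 and 6.55 in wild type sample 4. Of the 49 members, 16 had their highest value in wild type sample 4. In bulk tissue, fewer cells of a type and less RNA per cell cannot be told apart.

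No chemokine or chemokine receptor passed the test for a difference between the genotypes. Of the 49 members 0 reached an adjusted p under 0.05 in limma, against 0.0652% of all genes, and the smallest adjusted p was 0.264. At an unadjusted p under 0.05 there were 11 members (22.4%), against 7.90% of all genes. Higher in knockout among them were 7 (4.72% of all genes), namely Cxcl14, Ccl11, Cxcl13, Cx3cl1, Ccl24, Cxcl5 and Ccr1. Lower were 4 (3.18% of all genes), namely Cxcl9, Cxcl10, Cxcl11 and Cxcr6. With 1 sample left out, the unadjusted limma p stayed under 0.05 in all 8 fits for Cxcl14, Cxcr6 and Ccr1, in 6 for Cxcl5 and Cxcl11, in 5 for Ccl11 and Ccl24, in 4 for Cxcl9 and Cxcl13, in 3 for Cx3cl1 and in 1 for Cxcl10. The count of members was 6 without knockout sample 1 and 7 without knockout sample 3 or wild type sample 3. All knockout samples lay beyond all wild type samples for 4 members, against 4.90% of all genes: Ccl24 and Cxcl5 above (2.91%), and Cxcr6 and Cxcl11 below (1.99%). The members had no common direction, since 22 differences were positive and 27 negative, and their median difference was -0.011 beside 0.003 over all genes.

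**Figure D1:**
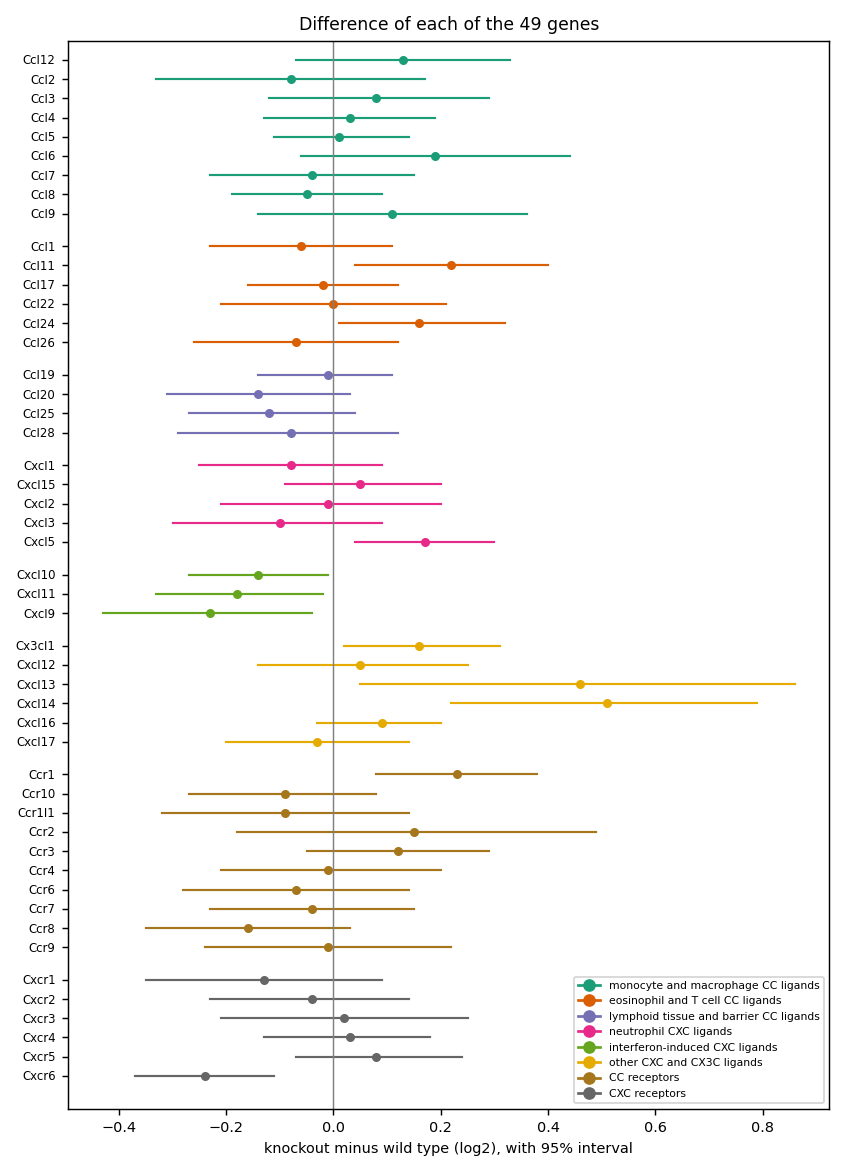
Difference between the genotypes on the log2 scale (x axis) for each of the 49 genes (y axis), grouped by role; points are knockout minus wild type means of 4 samples each and lines are limma's 95% intervals. The intervals of 11 genes leave 0 out, among them all 3 interferon-induced ligands on the negative side and Cxcl14, from 0.22 to 0.79, on the positive side.

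Cxcl14, a chemokine made steadily by stromal and epithelial tissues, had the largest difference of the family. Its log2 signal was 10.56, 10.57, 10.67 and 9.98 in knockout samples 1 to 4 and 10.00, 9.79, 10.04 and 9.92 in wild type samples 1 to 4. The first 3 knockout samples were above every wild type sample, and knockout sample 4 lay among the wild type values. The difference was 0.51 (SE 0.130, 95% interval 0.22 to 0.79), a signal 1.42 times that of wild type, with a limma adjusted p of 0.264 and an exact permutation p of 0.0857. Without knockout sample 4 the difference was 0.66 and Cxcl14 was the single member past the threshold (limma adjusted p = 0.00843). With any other single sample left out the limma adjusted p stayed above the threshold, reaching 0.539. The share of all genes that passed without knockout sample 4 is not given here.

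Bases upstream of Cxcl14 are shown because this gene had the largest difference. They are the 250 bases before its RefSeq start site (GRCm38.p6, chr13:56296552-56296801, minus strand), read 5′ to 3′ along the gene. Capitals mark matches to a STAT site, spelled TTCNNNGAA, and to an interferon-stimulated response element, spelled GAAANNGAAA, each searched on both strands.
Cxcl14: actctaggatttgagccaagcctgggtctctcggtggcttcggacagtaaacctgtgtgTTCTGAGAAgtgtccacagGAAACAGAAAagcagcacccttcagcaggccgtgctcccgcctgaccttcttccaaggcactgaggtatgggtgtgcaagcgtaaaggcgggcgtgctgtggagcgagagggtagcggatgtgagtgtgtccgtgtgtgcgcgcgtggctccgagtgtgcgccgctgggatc
The STAT match begins 191 and the interferon element match 172 bases before the start site. Over all RefSeq windows of 300 bases (250 before to 50 after a start), 8.30% held the STAT spelling and 3.44% the interferon spelling. Of the 35 members with a window, 4 held the first and 3 the second (Cxcl14, Cxcl10 and Ccl19). A member counted if any of its windows matched, while the percentages count single windows, so the shares differ in unit. A MEF2 site, the sequence bound by the factors that HDAC5 represses, was found by its consensus in 3.19% of windows and in 0 of the 35 members. A match describes letters in the window and shows no binding.

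**Figure D2:**
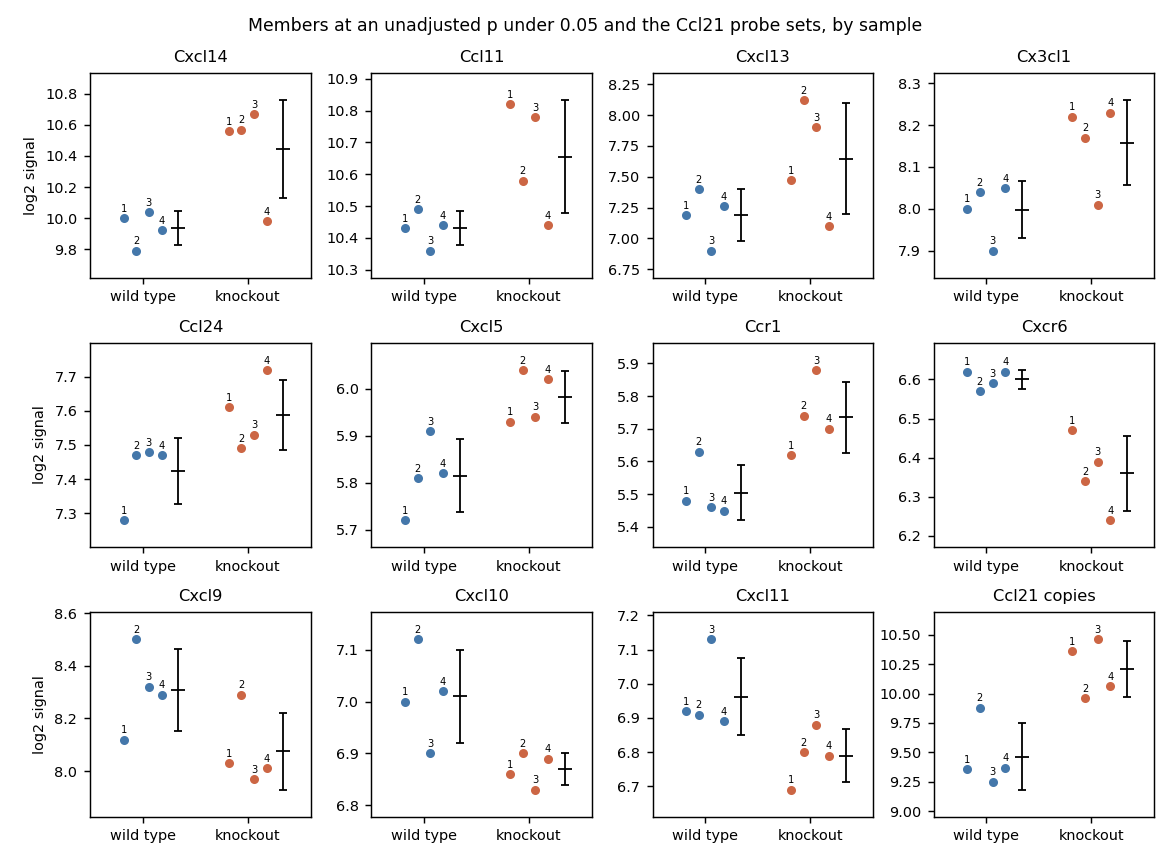
Log2 signal (y axis) of the 11 members at an unadjusted p under 0.05 in limma, by genotype (x axis). The last panel is the probe set of highest mean among those shared by the Ccl21 copies. Numbered points are samples, and bars give the mean and SD of 4 samples. Knockout sample 4 sits at 9.98 for Cxcl14, among the wild type samples, and all knockout samples lie above all wild type samples for Ccl24, Cxcl5 and the Ccl21 copies.

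The eosinophil attractant Ccl11 (eotaxin), which fibroblasts secrete, showed a smaller difference with the same samples on top. Its signal was 10.82, 10.58, 10.78 and 10.44 in the knockout samples and 10.43, 10.49, 10.36 and 10.44 in the wild type samples. Knockout samples 1 to 3 were above all wild type samples and knockout sample 4 was not. The difference was 0.22 (SE 0.0828, limma adjusted p = 0.497), and 0.29 without knockout sample 4. Ccl24 (eotaxin-2), a second ligand of the same receptor, was 7.61, 7.49, 7.53 and 7.72 in knockout and 7.28, 7.47, 7.48 and 7.47 in wild type samples. The groups were apart by only 0.01 between knockout sample 2 and wild type sample 3, and the difference was 0.16 (SE 0.0705, adjusted p = 0.592 in limma). Ccr3, the receptor of both, ranged from 6.11 to 6.24 in knockout and from 5.89 to 6.22 in wild type muscle, overlapping ranges at the 13.1th signal percentile. The remaining ligands of this group, Ccl1, Ccl17, Ccl22 and Ccl26, differed by -0.07 to 0.00.

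Fibroblast markers were read beside Cxcl14 and Ccl11, and 0 of 10 passed in limma. All 10 differences were positive, from 0.01 to 0.44, and 3 had an unadjusted p under 0.05. Of all 9970 genes above the median signal, 5970 were positive and 10.8% had an unadjusted p under 0.05 in limma. The mean of the list was 10.46, 10.19, 10.50 and 10.30 in the knockout and 10.18, 10.35, 10.17 and 10.07 in the wild type samples. Wild type sample 2 lay above knockout samples 2 and 4 in this mean. Knockout sample 2 was high in Cxcl14 (10.57) and low in the fibroblast mean (10.19). What part the amount of fibroblast RNA has in these differences was not tested.

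Cxcl12, the stromal ligand that retains CXCR4-bearing cells, and its receptors did not pass. Cxcl12 was 9.79, 10.13, 9.77 and 9.95 in knockout and 9.88, 9.99, 9.86 and 9.70 in wild type samples, overlapping throughout. The difference was 0.05, with a 95% interval from -0.14 to 0.25. Cxcr4, the signalling receptor, was 8.24, 8.18, 8.00 and 8.10 in knockout and 8.13, 7.97, 8.21 and 8.10 in wild type samples, a difference of 0.03 (interval -0.13 to 0.18). Ackr3, an atypical receptor that binds and removes Cxcl12 and is outside the named family, was 8.51, 8.46, 8.55 and 8.58 against 8.33, 8.39, 8.44 and 8.24. Every knockout sample was above every wild type sample, but the difference of 0.18 (SE 0.0607) did not pass in limma (adjusted p = 0.461).

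Cx3cl1 (fractalkine), a membrane-bound ligand of endothelium, was 8.22, 8.17, 8.01 and 8.23 in knockout and 8.00, 8.04, 7.90 and 8.05 in wild type samples. Knockout sample 3 lay within the wild type range, and the difference was 0.16 (SE 0.0661, limma adjusted p = 0.554). Its receptor Cx3cr1, found on monocytes and microglia and not a member by the naming rule, differed by -0.08 (interval -0.22 to 0.07). Markers of blood vessel endothelium overlapped between the genotypes, with list means of 9.97 to 10.27 in knockout and 9.97 to 10.16 in wild type samples and 0 of 7 at an unadjusted p under 0.05. Cxcl17, a mucosal chemokine, differed by -0.03.

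Cxcl13, which draws B cells into follicles, had the largest spread of the family among knockout samples (SD 0.45). Its signal was 7.47, 8.12, 7.90 and 7.10 in knockout and 7.19, 7.40, 6.90 and 7.26 in wild type samples. Knockout samples 2 and 3 were high, and knockout sample 4 was below 3 of the wild type samples. The difference was 0.46 with an SE of 0.185 (limma adjusted p = 0.552, exact permutation p = 0.171), and it ran from 0.30 to 0.64 with 1 sample left out. Its receptor Cxcr5 differed by 0.08 (interval -0.07 to 0.24) at the 12.2th signal percentile. The B cell markers gave list means of 6.46 to 6.61 in knockout and 6.55 to 6.67 in wild type samples. Of the 5 differences 1 was positive, 0 had an unadjusted p under 0.05 in limma, and 3 markers lay below the 25th signal percentile.

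Ccl19 and the Ccl21 copies are ligands of Ccr7, the receptor that leads dendritic cells and T cells into lymphatic vessels and lymph nodes. Ccl19, read by 5 probe sets whose differences ran from -0.01 to 0.01 and uncertain because near-identical copies lie beside it in the mouse genome, was 8.28, 8.28, 8.39 and 8.29 in knockout and 8.25, 8.28, 8.36 and 8.41 in wild type samples, a difference of -0.01. Ccr7 ranged from 7.71 to 7.95 and from 7.75 to 8.11, a difference of -0.04. The Ccl21 genes could not enter the family because each of their 4 probe sets carries 7 symbols, among them Ccl21a, Ccl21b, Ccl21c and Ccl21d. The probe set of highest mean stood for the 4. Its signal was 10.36, 9.96, 10.46 and 10.06 in knockout and 9.36, 9.88, 9.25 and 9.37 in wild type samples. Every knockout sample was above every wild type sample. The difference of 0.75 (SE 0.141, 1.68-fold) exceeded that of any member. It did not pass in limma when the 800 entries with several symbols were added to the genes (adjusted p = 0.0973 over 20738 entries). Without wild type sample 2, the highest of its group, it was 0.89 and passed (limma adjusted p = 0.0364). The share of all entries that passed in that fit is not given here. Which copy or copies gave the signal cannot be read from shared probes. The shared probe set of highest mean for Ccl27a and Ccl27b differed by 0.02.

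Lymphatic markers stood beside Ccl21. As a mean over the 6 genes they stood at 8.52, 8.27, 8.52 and 8.32 in knockout and 8.18, 8.37, 8.16 and 8.04 in wild type samples, so wild type sample 2 was high in both. Mmrn1 differed by 0.70 (SE 0.175), Lyve1, which resident macrophages also carry, by 0.50 (SE 0.114) and Flt4, the receptor of lymphatic growth factors, by 0.18 (SE 0.0762). Prox1, the factor that defines lymphatic identity, differed by -0.18 (SE 0.0855). None of the 6 passed in limma, and 3 had an unadjusted p under 0.05, against 7.90% of all genes. The part of lymphatic content in the Ccl21 signal was not tested.

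The 3 CXC ligands that interferon induces, Cxcl9, Cxcl10 and Cxcl11, were each lower in knockout muscle without passing the test. They recruit activated T cells and NK cells through Cxcr3. Cxcl9 was 8.03, 8.29, 7.97 and 8.01 in knockout and 8.12, 8.50, 8.32 and 8.29 in wild type samples. Cxcl10 was 6.86, 6.90, 6.83 and 6.89 against 7.00, 7.12, 6.90 and 7.02. Cxcl11, annotated as a transcribed pseudogene in the RefSeq table of the C57BL/6J genome, was 6.69, 6.80, 6.88 and 6.79 against 6.92, 6.91, 7.13 and 6.89. Only Cxcl11 had its genotypes apart, by 0.01 on these rounded values. In this order the differences were -0.23 (SE 0.0905), -0.14 (SE 0.0601) and -0.18 (SE 0.0693), and limma gave adjusted p-values of 0.529, 0.597 and 0.539. Their receptor Cxcr3 was 7.00 to 7.42 in knockout and 7.02 to 7.41 in wild type samples.

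Upstream sequences of Cxcl9 and Cxcl10 are shown because the group shared a direction. Each is the 250 bases before the RefSeq start site, 5′ to 3′ along the gene, both on the minus strand of GRCm38.p6 (chr5:92328080-92328329 for Cxcl9 and chr5:92348890-92349139 for Cxcl10). Capitals mark the letters of a TATA box (TATAAA) in Cxcl9, and in Cxcl10 the interferon-stimulated response element (spelled GAAANNGAAA) followed by 2 matches to the NF-kB consensus.
Cxcl9: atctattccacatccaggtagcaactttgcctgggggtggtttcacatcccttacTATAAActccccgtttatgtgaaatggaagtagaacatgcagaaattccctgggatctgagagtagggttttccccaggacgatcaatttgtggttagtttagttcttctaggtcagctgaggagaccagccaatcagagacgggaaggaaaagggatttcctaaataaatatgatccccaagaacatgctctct
Cxcl10: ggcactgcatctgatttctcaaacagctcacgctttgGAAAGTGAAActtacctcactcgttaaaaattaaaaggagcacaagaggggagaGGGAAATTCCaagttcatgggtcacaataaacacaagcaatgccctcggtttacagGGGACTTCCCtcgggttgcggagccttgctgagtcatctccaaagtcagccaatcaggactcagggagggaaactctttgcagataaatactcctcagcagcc
The TATAAA of Cxcl9 begins 195 bases before the start site, farther than a TATA box usually lies. In Cxcl10 the interferon element begins 213 bases, and the NF-kB matches 159 and 103 bases, before the start site. The NF-kB consensus was present in 4.51% of all windows and in 8 of the 35 members with a window, among them the neighbouring Cxcl1, Cxcl2 and Cxcl3. The letters TATAAA were present in 13.6% of all windows and in 11 of the 35 members. Here too a member counted if any of its windows matched, while the percentages count single windows.

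Genes that induce chemokines gave no parallel shift. Of 26 tested on the list of cytokines, NF-kB subunits and interferon regulatory factors, 0 passed in limma, and 1, Irf3 (difference -0.15, SE 0.0670), had an unadjusted p under 0.05. Ifng, the cytokine that induces Cxcl9, differed by 0.10, Irf1 by -0.04, Irf7 by 0.06 and Tnf by 0.07. The list's median difference was 0.002. Markers of T cells and NK cells overlapped, with list means of 6.47 to 6.64 in knockout and 6.48 to 6.69 in wild type samples. Of these 10 markers, 0 had an unadjusted p under 0.05 in limma. Dim signals understate a change, and 7 of the 10 lay below the 25th signal percentile.

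Cxcr6, a receptor of resident T cells and NK T cells, had the most negative difference of the family, at 6.47, 6.34, 6.39 and 6.24 in knockout and 6.62, 6.57, 6.59 and 6.62 in wild type samples. All knockout samples were below all wild type samples, although the signal lay at the 18.1th percentile. The difference was -0.24 (SE 0.0612, 95% interval -0.37 to -0.11), the limma adjusted p was 0.264, and the exact permutation p was 0.0286, the lowest value possible with 4 samples on each side. Cxcl16, its only ligand, was 7.01, 6.96, 6.99 and 6.99 in knockout and 6.94, 6.86, 6.84 and 6.97 in wild type samples, a difference of 0.09 (interval -0.03 to 0.20). Xcr1, the receptor of cross-presenting dendritic cells and a neighbour of Cxcr6 on chromosome 9, is outside the naming rule. It was 6.39, 6.29, 6.40 and 6.61 against 6.84, 6.78, 6.62 and 6.62, a difference of -0.29 (SE 0.0793, adjusted p = 0.299 in limma). The dendritic cell markers overlapped, with 0 of 5 at an unadjusted p under 0.05 in limma and 2 of the 5 below the 25th signal percentile.

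Monocyte and macrophage ligands did not separate the genotypes. None of the 9 (Ccl2, Ccl3, Ccl4, Ccl5, Ccl6, Ccl7, Ccl8, Ccl9 and Ccl12) had an unadjusted p under 0.05, their differences ran from -0.08 to 0.19, and the median was 0.028. Ccl2, the main monocyte attractant, was 7.95 in wild type sample 4 and 7.29 to 7.70 in the other 7 samples, a difference of -0.08 (interval -0.33 to 0.17). Ccl6 was 8.32, 7.90, 8.39 and 7.99 in knockout and 7.91, 8.16, 8.03 and 7.75 in wild type samples, with samples 1 and 3 high among the knockouts. Ccl9 was 8.80, 8.61, 9.23 and 8.82 against 8.70, 8.93, 8.63 and 8.78. Both are made by macrophages in mice, and their differences were 0.19 (SE 0.116) and 0.11 (SE 0.115). Among other ligands of Ccr1, Ccl3 differed by 0.08, Ccl5 by 0.01 and Ccl7 by -0.04.

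Ccr1, a receptor of monocytes, neutrophils and other myeloid cells for Ccl3, Ccl5, Ccl6, Ccl7 and Ccl9, was 5.62, 5.74, 5.88 and 5.70 in knockout and 5.48, 5.63, 5.46 and 5.45 in wild type samples. Only wild type sample 2 and knockout sample 1 crossed, by 0.01. The difference was 0.23 (SE 0.0693, limma adjusted p = 0.370), at the 7.70th signal percentile. Ccr2, which draws monocytes out of bone marrow towards Ccl2, was 7.20, 6.86, 7.57 and 6.90 in knockout and 7.01, 7.32, 6.80 and 6.80 in wild type samples. It followed single samples more than genotype, and the interval of its difference ran from -0.18 to 0.49.

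Macrophage markers were read beside these genes, and 0 of 16 passed in limma. Of the 16, 13 had positive differences, 9 of them at an unadjusted p under 0.05, and Cbr2 (-0.23), Mertk (-0.04) and Fcgr1 (-0.04) had negative ones. The list mean was 8.70, 8.50, 8.79 and 8.59 in knockout and 8.36, 8.58, 8.43 and 8.31 in wild type samples. Knockout samples 1 and 3 were highest and wild type sample 2 lay within the knockout range. The same samples were the highest of their genotypes in Ccl6 and Ccr2. In Ccr1 and Ccl9 knockout sample 3 and wild type sample 2 were highest, but knockout sample 1 was not high. Knockout sample 1 was the lowest knockout sample in Ccr1 (5.62) and below knockout sample 4 in Ccl9 (8.80 against 8.82). The monocyte markers overlapped (7.64 to 7.68 against 7.55 to 7.70), with 2 of 6 below the 25th signal percentile. The part of macrophage content in Ccr1, Ccl6 or Ccr2 was not tested. Of 6 mast cell markers, all below the median signal, 2 had an unadjusted p under 0.05 in limma, against 4.98% of all genes there. These were the granule protease Cpa3 at a difference of 0.61 (SE 0.113, limma adjusted p = 0.0826) and Mcpt4 at 0.25. Tpsb2, Cma1, Ms4a2 and Kit differed by 0.07, 0.04, 0.02 and -0.04. The mast cell list mean was 7.25 to 7.43 in knockout and 7.08 to 7.31 in wild type samples. At an unadjusted p under 0.05 in limma the remaining lists gave 2 higher and 3 lower of 7 pericyte and smooth muscle markers. They also gave 1 lower of 3 Schwann cell markers, 1 lower of 12 muscle fibre genes, 1 lower of 5 satellite cell markers, and 0 of 5 adipocyte markers. The adipocyte list mean was 8.87 to 9.24 in knockout and 9.10, 9.97, 8.30 and 8.98 in wild type samples. Wild type sample 2 was the highest of the 8 samples in this mean and wild type sample 3 the lowest.

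**Figure D3:**
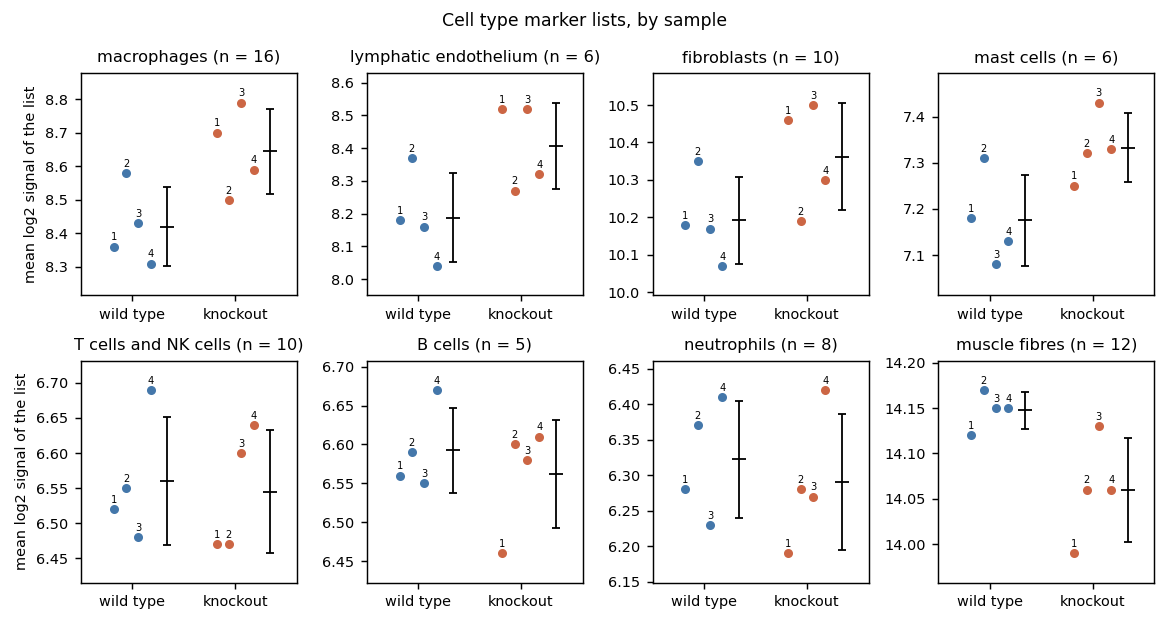
Mean log2 signal of the marker genes of 8 cell types (y axis) by genotype (x axis); numbered points are samples, bars give mean and SD of 4 samples, and each panel has its own scale. Knockout samples 1 and 3 are highest for macrophages (8.70 and 8.79), lymphatic endothelium (both 8.52) and fibroblasts (10.46 and 10.50), while T cell, B cell and neutrophil markers overlap.

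Neutrophil attractants were mostly dim. Of the 5 (Cxcl1, Cxcl2, Cxcl3, Cxcl5 and Cxcl15), 4 lay below the 25th signal percentile. Cxcl5 was 5.93, 6.04, 5.94 and 6.02 in knockout and 5.72, 5.81, 5.91 and 5.82 in wild type samples, so that the genotypes were apart by 0.02. Its difference was 0.17 (SE 0.0599, limma adjusted p = 0.468), and its unadjusted limma p was above 0.05 without knockout sample 2 or wild type sample 1. The other 4 differed by -0.10 to 0.05. The receptor Cxcr2 ranged from 4.93 to 5.34 in knockout and from 5.09 to 5.29 in wild type samples, and Cxcr1 differed by -0.13. Neutrophil markers overlapped, with list means of 6.19 to 6.42 in knockout and 6.23 to 6.41 in wild type samples. Of the 8 markers, 0 had an unadjusted p under 0.05 in limma and 6 lay below the 25th signal percentile.

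Barrier chemokines and the remaining CC receptors did not pass. Ccl25, a thymus and gut chemokine read by 2 probe sets, was 8.77, 8.61, 8.48 and 8.55 in knockout and 8.76, 8.63, 8.79 and 8.71 in wild type samples. The difference was -0.12 (SE 0.0704) on this probe set and -0.16 on the other. Its receptor Ccr9 differed by -0.01, and Ccl20, the ligand of Ccr6, by -0.14 (interval -0.31 to 0.03). Ccl28 differed by -0.08, Ccr10, one of its receptors, by -0.09 and Ccr6 by -0.07. Ccr8, a receptor of skin-homing and regulatory T cells, was 5.81, 5.92, 5.67 and 5.78 in knockout and 5.76, 5.89, 6.02 and 6.14 in wild type samples, a difference of -0.16 (interval -0.35 to 0.03). Its ligands Ccl1 and Ccl8 differed by -0.06 and -0.05. Ccr4, the receptor of Ccl17 and Ccl22, differed by -0.01, and the Ccr1-like gene Ccr1l1 by -0.09. Of the 16 receptors 10 had negative differences, and 15 were below the median signal, where 5694 of all 9968 genes had negative differences as well.

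**Figure D4:**
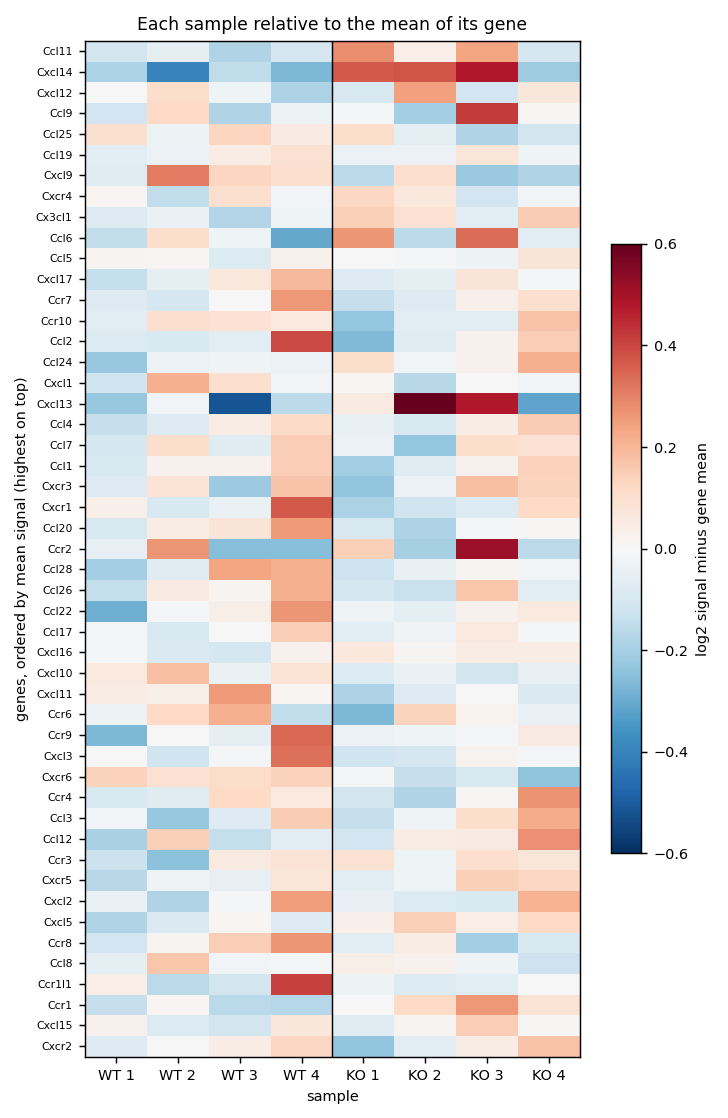
Log2 signal of each sample minus the mean of its gene (colour) for the 49 genes (rows, ordered by mean signal with the highest on top) in 4 wild type (WT) and 4 knockout (KO) samples (columns). Wild type sample 4 is the highest sample for 16 genes, and Cxcl14 and Ccl11 are high in knockout samples 1 to 3 alone.

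The other genes of the chemokine system, taken from a list, did not pass either. Of 11, 0 passed in limma, and 3 had an unadjusted p under 0.05 (Ackr2 and Ackr3 higher, Xcr1 lower), against 7.90% of all genes. Ackr2, a scavenger of inflammatory CC chemokines, was 7.94, 7.93, 8.00 and 7.89 in knockout and 7.74, 7.83, 7.84 and 7.75 in wild type samples. The genotypes were apart for this decoy receptor, with a difference of 0.15 (SE 0.0557, adjusted p = 0.485 in limma). Ackr1, the scavenger of red cells and venules, differed by -0.04, Ackr4, the scavenger of Ccl19, Ccl21 and Ccl25, by -0.16, and the platelet chemokine Pf4 by 0.18 (SE 0.132).

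Signalling and presentation genes did not pass. Of 29 genes that carry or brake receptor signals 0 passed in limma and 2 had an unadjusted p under 0.05: Rgs2, a brake on G proteins, at a difference of 0.37 (SE 0.115), and Arrb1, an arrestin, at 0.26 (SE 0.0919). Of 21 genes that hold chemokines on the cell surface or trim them, 0 passed and 3 had an unadjusted p under 0.05 in limma. These were the heparanase Hpse (0.26, SE 0.0721), the peptidase Dpp4, which clips Cxcl12 and other chemokines (0.24, SE 0.0785), and the sheddase Adam10, which releases Cx3cl1 and Cxcl16 (0.18, SE 0.0711). The medians of the lists were 0.024 and 0.035, beside 0.003 over all genes and 0.021 over all genes above the median signal. Most genes of both lists lay above it, with 9 of the 29 and 5 of the 21 below. Of all genes above the median signal, 10.8% had an unadjusted p under 0.05 in limma.

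**Figure D5:**
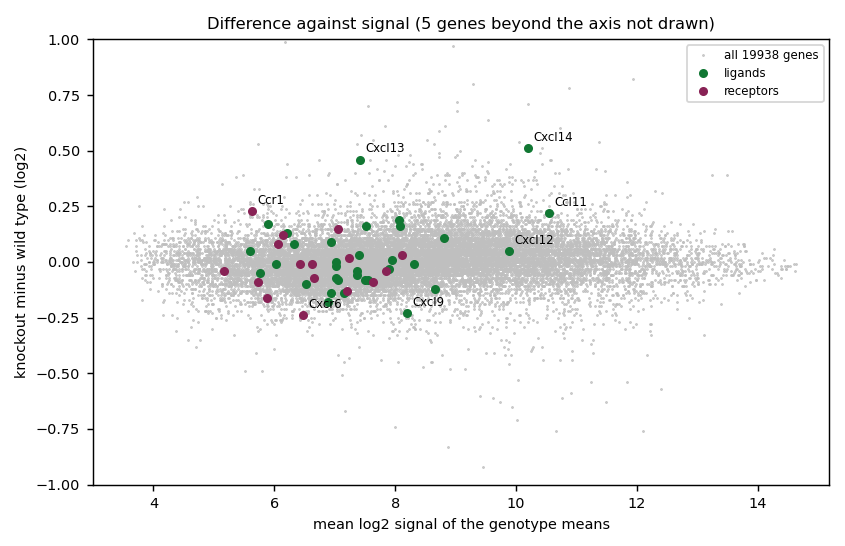
Knockout minus wild type difference (y axis, log2) against mean log2 signal (x axis) for 19938 genes (grey), with ligands in green and receptors in purple; 5 genes beyond the axis are not drawn. Most members lie left of the middle of the signal range and within the cloud of all genes, and Cxcl14 and Cxcl13 stand highest at 0.51 and 0.46.

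The genes with sample patterns most like the 3 members of smallest p were found by Pearson correlation over the 8 samples, as a description without a test. For Cxcl14 they were Vrk2, Il15, Slc16a6, Gadl1 and Dnajc10, with r of 0.95 to 0.97 over all samples and 0.88 to 0.94 after the genotype means were removed. Il15, a cytokine made by muscle that sustains NK cells and memory T cells, differed by 0.47 and had r of 0.97 and 0.94. For Cxcr6 they were Mrps7, Rps29, Tm2d2, Rny1 and Rps19bp1 (r of 0.95 to 0.98, and 0.74 to 0.94 within genotypes). For Ccr1 they were Rab3b, Atf3, Cep128, Cpa3 and Lilrb4a (r of 0.94 to 0.98, and 0.81 to 0.96 within genotypes). The points share their arrays, and the highest of very many correlations over 8 samples is large by selection.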

How the data were processed

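RNA from 8 gastrocnemius samples was hybridised to Affymetrix gene arrays. Per the labels' protocols, each array took 150 ng of total RNA, with integrity numbers over 8. The authors deposited log2 values made with Affymetrix Expression Console 4.0, per the submitters' processing notes; the log2 scale was read from the values. Not given in the sources used here were background correction, normalization and genome build. Gene symbols came from the platform annotation: 21789 of 35556 probe sets had 1 symbol, 1621 several, and 12146 were unnamed here. The probe set of highest mean stood for each of 19938 genes.

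Values were used as deposited. limma 3.58.1 in R 4.3.3 (lmFit, eBayes) compared knockout with wild type over all genes, tested on simulated data, with Benjamini-Hochberg adjustment and a threshold of 0.05. Intervals are 95%, and permutation tests were exact and 2-sided over 70 arrangements. The number of arrays limits the precision. Promoter sequences are RefSeq's (GRCm38.p6), and 35 of 49 members matched. The naming rule took the 12 members of smallest p, the 8 of highest mean, those with genotypes apart and textbook partners of these. Other members, among them Ccl2 and Ccr2, were added to the text after their values were seen, to account for the whole family. Beside them, lists of 11 to 30 pathway genes and of cell type markers were read out of the same fit. The members and lists were chosen with earlier results of these data known. Alternatives were quantile normalization, median centring, a trended and robust eBayes, a dim filter at the 25th percentile, mean probe sets, array weights, a replicate block and leaving out samples. Plots were drawn with matplotlib 3.10.9.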

Additional observations from a re-analysis of the deposited data

Results flagged for a closer look

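Among the 98 groups of 4 samples (49 genes in both genotypes), 7 had 1 sample far from the other 3, where chance flags about 1 in 20 groups. In knockout muscle these were Cxcl14 in sample 4 (9.98, the others 10.56 to 10.67), Cxcl2 in sample 4 (6.23, the others 5.93 to 5.97) and Ccl19 in sample 3 (8.39, the others 8.28 to 8.29). In wild type muscle they were Ccl2 in sample 4 (7.95, the others 7.46 to 7.49), Ccl24 in sample 1 (7.28, the others 7.47 to 7.48), Ccr1 in sample 2 (5.63, the others 5.45 to 5.48) and Cxcl11 in sample 3 (7.13, the others 6.89 to 6.92).

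The probe sets shared by the Ccl21 copies lie outside the comparison of genes with their own probe sets. The brightest of them had a mean of 10.21 in knockout muscle beside 9.46 in wild type muscle.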

How the results depend on the processing

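Over 17 alternatives, 0 of the 49 members passed the limma threshold in all but 1 of them, the exception being Cxcl14 without knockout sample 4, so with 1 sample left out the number was 0 to 1. The number at an unadjusted p under 0.05 was 6 to 11 with 1 sample left out and 8 to 11 otherwise. The number with genotypes apart was 5 to 8 with 1 sample left out (7 when knockout sample 2 and 8 when knockout sample 4 was absent). It was 2 with dim genes left out. That filter left the 17 members below the 25th signal percentile untested, Cxcl5, Cxcr6 and Ccr1 among them, so its counts are not out of 49. The number apart was 7 with knockout 1 and wild type 4 removed together, which was added after the data had been seen. Ranges of fewer samples come apart more easily, whatever the gene. How many of all genes were apart in the fits with samples removed is not given here. A rise above the 4 members of the full comparison is therefore not read as a result about chemokines. The median difference of the members was -0.038 to 0.031 with 1 sample left out and 0.050 without both samples.

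The differences of 30 members, those chosen by the naming rule and their partners, were recomputed in the alternatives; 19 kept their sign in every alternative that tested them and 11 did not. The other members were not followed singly. Quantile normalization turned Ccr9 (0.009). The mean of probe sets turned Ccl19 (0.000), and array weights turned Ccl19 (0.008), Ccr7 (0.001) and Ccr9 (0.052). With knockout 1 and wild type 4 removed together the turned values were Ccl1 (0.040), Ccl19 (0.026), Ccl7 (0.010), Ccr7 (0.076), Ccr9 (0.113), Cxcr2 (0.059) and Cxcr4 (-0.012). With 1 sample left out the ranges of members that turned were Ccl19 -0.042 to 0.014, Ccl5 -0.011 to 0.027, Ccl7 -0.078 to 0.034, Ccl9 -0.015 to 0.190, Ccr7 -0.083 to 0.038, Ccr9 -0.102 to 0.101, Cxcl12 -0.020 to 0.100, Cxcr2 -0.109 to 0.026, Cxcr3 -0.049 to 0.102 and Cxcr4 -0.017 to 0.070. The cause was not tested.

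With the sample number as a replicate block, 0 members passed and 11 had an unadjusted p under 0.05 in limma. Same-numbered samples deviated together for numbers 1 and 4 (correlation 0.34 each) and not for 2 and 3 (-0.11 and -0.15), so the numbers were not taken to pair the samples. Of the 49 members 17 lay below the 25th signal percentile, where dim signals understate a change.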

Other observations

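Along the chromosomes, neighbouring members did not all share a direction. The 5 neighbours Ccl3, Ccl4, Ccl5, Ccl6 and Ccl9 on chromosome 11 all had positive differences (median 0.082), whereas of the 6 neighbours Ccl1, Ccl2, Ccl7, Ccl8, Ccl11 and Ccl12 on the same chromosome 2 were positive (median -0.043). The 3 interferon-induced ligands on chromosome 5 were all negative (median -0.175), while Cxcl5, Cxcl3, Cxcl15, Cxcl1 and Cxcl2, also on chromosome 5, had 2 positive differences of 5 (median -0.007). The receptor cluster on chromosome 9 (Ccr9, Cxcr6, Ccr1, Ccr1l1, Ccr3 and Ccr2) had 3 positive differences of 6, with Cxcr6 at -0.24 and Ccr1 at 0.23.

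Hdac5 lies on chromosome 11 with 14 members of the family. The nearest, Ccr10, had 39 tested genes between it and Hdac5 and a difference of -0.09, and Ccr7 had 122 and a difference of -0.04. The Ccl ligands on that chromosome had 351 to 389 tested genes between them and Hdac5.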
